A study of Mus musculus with 14 samples.

Results

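Mbp, Cnp, Mag and Cldn11 are 4 genes of the myelin sheath that are switched on early when oligodendrocyte precursor cells (OPCs) become oligodendrocytes (OLs). They were taken by gene symbol from a table of 23427 genes measured by mRNA-seq in 14 libraries, and each symbol matched 1 gene. All 4 passed the filter on low values. In cultured OPC/OLs, the mRNAs of all 4 genes rose from Day0 to Day3 of differentiation in every Day3 group. Knockdown (KD) of Secisbp2l left Mbp at 24.1% and Mag at 16.0% of the mean of the Day3 controls, and Cnp and Cldn11 at 55.7% and 55.9%. KD of Pdgfra left Mag at 17.0% of the controls and Mbp at 96.4%. The 4 kinds of Day3 control differed among themselves in Mbp, Mag and Cldn11, so each is given apart.

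Myelin is built by wrapping the OL membrane around axons and pressing its layers together. Myelin basic protein (Mbp) binds the cytoplasmic faces of the membrane and zips them into compact myelin, and its mRNA is carried in granules along OL processes and translated locally. Cnp encodes the phosphodiesterase CNPase, which keeps cytoplasm-filled channels open in the sheath, where it counteracts the compaction by Mbp. Mag encodes myelin-associated glycoprotein, a sialic acid-binding adhesion protein on the innermost, periaxonal layer facing the axon. Cldn11 encodes claudin-11, also called oligodendrocyte-specific protein, which forms the tight junction strands of central myelin.

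The cells were primary OPCs of C57BL/6J mice, which by the study's methods were immunopanned with an antibody to PDGFRα from the cortices of 3 pups at postnatal day 7 and were led to differentiate by taking away PDGF-AA and giving thyroid hormone. The 7 groups were OPCs at Day0, cells at Day3 that were non-treated, mock-treated, or given non-targeting siRNA #1 or #2 (NC siRNA #1 and #2), all of genotype WT, and cells at Day3 given siRNA to Secisbp2l (siSbp2l, Secisbp2l knockdown) or to Pdgfra (siPdgfra, Pdgfra knockdown). Each group had 2 libraries, which the methods describe as independent replicates of cultured OPCs, and the labels do not tie libraries to animals. All 14 libraries belong to the KD series of the study, for which the methods give a single sequencer and read length. The labels give a serum-containing medium for growth, which differs from the culture described in the methods. The libraries were bulk RNA, so fewer cells making a transcript and less of it per cell cannot be told apart.

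The genomic starts of Cnp, Mag and Cldn11 are shown because 2 of these 3 upstream windows hold the core letters bound by MYRF, the transcription factor that switches on central myelin genes, and because the mRNA of Myrf is among the values described later. Cnp lies on chromosome 11, plus strand, 100574939 to 100581739, with 2678 bases of exon over 2 transcripts. Mag lies on chromosome 7, minus strand, 30899183 to 30914832, with 2427 bases of exon in 1 transcript. Cldn11 lies on chromosome 3, plus strand, 31149920 to 31164326, with 1872 bases of exon in 1 transcript. These positions are those of the deposited gene table on build mm10. RefSeq promoter sequences of the same build (GRCm38.p6) matched 3 of the 4 genes. The 250 bases before the transcription start, in the direction of the gene, are chr11:100574689-100574938 (plus strand) for Cnp, chr7:30914923-30915172 (minus strand, before the outermost of 3 listed starts) for Mag and chr3:31149670-31149919 (plus strand) for Cldn11. They are written 5′ to 3′ with the MYRF letters CTGGCAC in capitals.
Cnp: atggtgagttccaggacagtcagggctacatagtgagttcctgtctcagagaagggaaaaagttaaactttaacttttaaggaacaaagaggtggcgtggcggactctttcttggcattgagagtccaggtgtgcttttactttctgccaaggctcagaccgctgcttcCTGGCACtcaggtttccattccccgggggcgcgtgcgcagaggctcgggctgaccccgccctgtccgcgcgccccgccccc
Mag: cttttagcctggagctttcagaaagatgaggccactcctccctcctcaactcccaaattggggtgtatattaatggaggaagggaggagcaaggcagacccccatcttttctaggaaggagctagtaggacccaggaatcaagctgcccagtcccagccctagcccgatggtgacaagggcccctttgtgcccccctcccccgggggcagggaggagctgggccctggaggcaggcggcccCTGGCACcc
Cldn11: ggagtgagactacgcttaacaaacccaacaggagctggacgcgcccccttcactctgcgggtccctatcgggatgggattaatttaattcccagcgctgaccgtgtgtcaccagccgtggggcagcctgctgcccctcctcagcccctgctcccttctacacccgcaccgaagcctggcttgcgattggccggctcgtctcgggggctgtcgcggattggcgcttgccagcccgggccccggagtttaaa
The letters CTGGCAC and CTGGTAC were searched on both strands and occurred on the gene's own strand 81 to 75 bases before the start in Cnp and 9 to 3 bases before it in Mag, and not in the Cldn11 window. Distances for Mag are counted from the outermost RefSeq start, which lies upstream of the deposited gene model's start at 30914832. Of 32851 RefSeq windows of the same length, 5.93% held a match. The SOX letters ACAAAG or AACAAT occurred in the Cnp window 167 to 162 bases and in the Mag window 67 to 62 bases before the start, where 24.0% of all windows held them. None of the 3 windows held ATCAAAG (TCF/LEF factors, 3.21% of all windows), CAGCTG (E-box, 13.0%) or AGGTCA (half-site of the thyroid hormone receptor, 14.02%). No searched motif is part of another. These matches are letters in a window and no measurement of binding.

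Levels are the deposited FPKM values, that is fragments per kb of exon per fixed number of mapped fragments. The exon length of a gene covers its transcripts counted together, at 6718 bases for Mbp, 2678 for Cnp, 2427 for Mag and 1872 for Cldn11. Ranks and ratios between genes by FPKM depend on that length. The depth recovered from the FPKM values was lowest in NC siRNA #2 replicate 2, at 6557400 fragments, and highest in Day0 replicate 1, at 31621200, and 10834 to 11034 genes reached 1 FPKM. The siRNA targets were low where the labels place them. Secisbp2l was at 3.91 and 3.82 FPKM in siSbp2l and at 135 to 255 FPKM in the other 10 Day3 libraries, and Pdgfra was at 3.30 and 2.69 FPKM in siPdgfra and at 32.4 to 72.1 FPKM in the 8 control libraries. The non-treated replicates stood apart from each other. Their log2 difference had an SD of 0.46 over 11874 genes, with 252 genes over 2-fold apart, against 0.15 to 0.20 and 7 to 21 genes in the other groups.

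All differences below are on the scale log2(FPKM + 1) from limma, with the standard error (SE), the 95% confidence interval (CI) where given, and a p-value adjusted by the Benjamini-Hochberg method over all genes tested. A gene is called when its adjusted p is under 0.05 and its difference is at least 2-fold, and "rose" and "fell" are used only of called differences. The comparisons of KD and control groups share libraries and are not independent of each other. From Day0 all 4 genes were called higher in each of the 6 Day3 groups. The share of 11874 tested genes called higher was 11.4% in non-treated, 12.2% in mock, 13.2% in NC siRNA #1, 13.5% in NC siRNA #2, 12.1% in siSbp2l and 13.9% in siPdgfra.

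In siSbp2l, 2 of the 4 genes (Mbp and Mag) were called lower than the mean of the 4 controls, where 4.08% of 11650 tested genes were. Against the single controls, 3 of 4 were called lower than non-treated (background 4.95%), 2 of 4 than mock (4.76%), 3 of 4 than NC siRNA #1 (5.28%) and 3 of 4 than NC siRNA #2 (4.30%). In siPdgfra, 1 of 4 (Mag) was called lower than the mean of the controls, where 4.03% of genes were. The counts were 2 of 4 against non-treated (background 4.82%), 1 of 4 against mock (4.69%), 1 of 4 against NC siRNA #1 (4.67%) and 2 of 4 against NC siRNA #2 (5.12%). Of the 4 genes, 1 (Mbp) was called lower in siSbp2l than in siPdgfra, where 6.73% of genes were.

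The controls were compared with each other in the same way. Mock against non-treated gave 0 calls among the 4 genes and 0% of all genes called lower by limma, with 1 gene called higher, 25 genes with an adjusted p under 0.05 and 1924 with an unadjusted p under 0.05. NC siRNA #1 gave 0 calls among the 4 against non-treated (background 1.84%) and 0 against mock (1.67%). NC siRNA #2 had 2 of 4 (Mbp and Mag) called lower than non-treated (background 1.37%), 1 of 4 (Mag) lower than mock (1.39%) and 2 of 4 (Mbp and Mag) lower than NC siRNA #1 (2.36%).

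**Figure D1:**
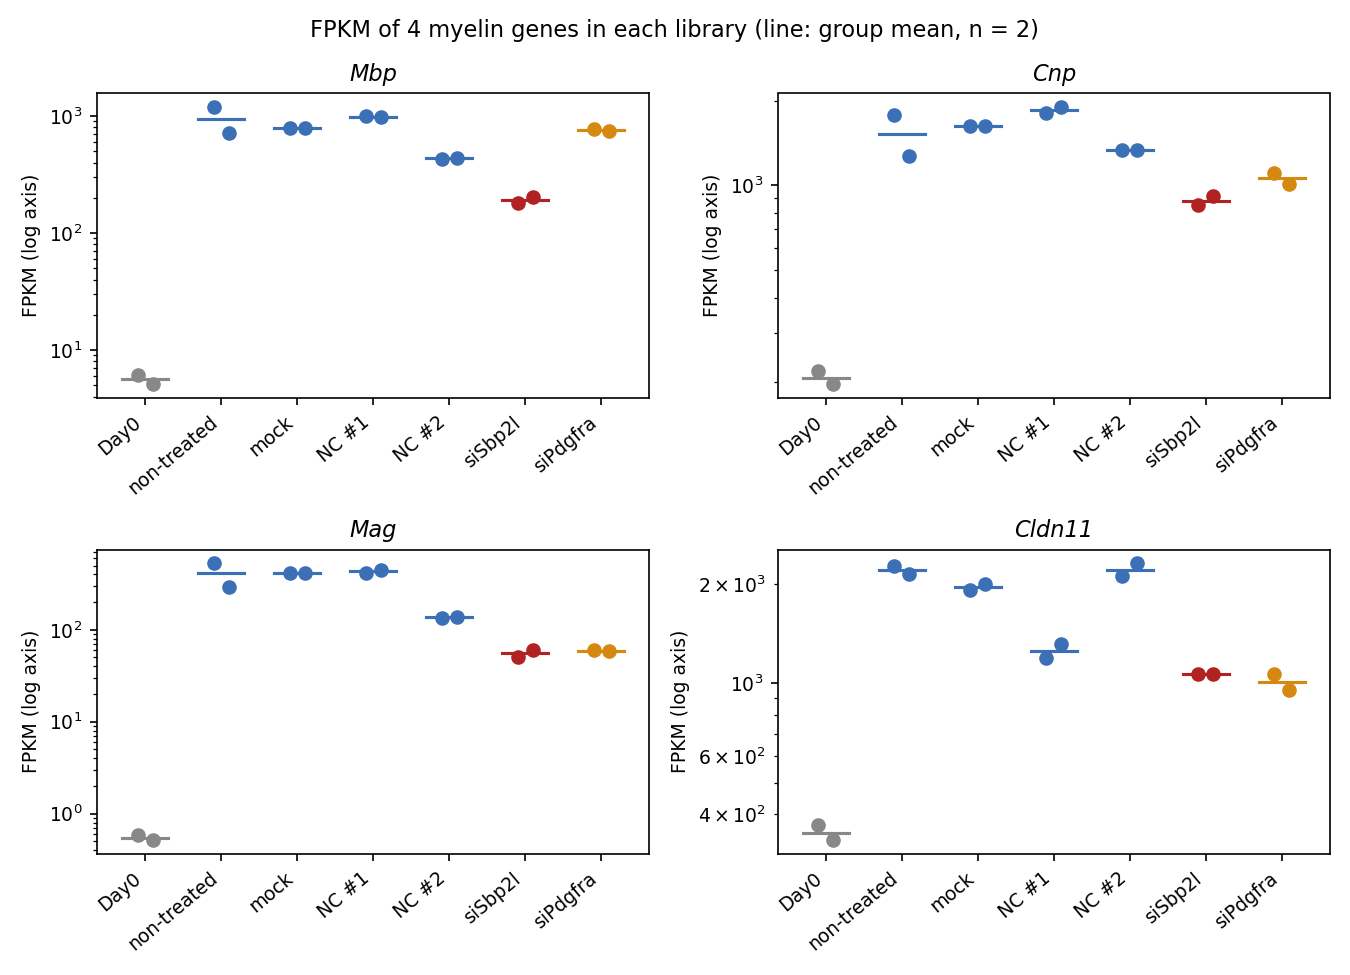
FPKM of Mbp, Cnp, Mag and Cldn11 (log axis) in each of the 14 libraries by group, with points for libraries and a line for the group mean (n = 2). Day0 is lowest in all 4 panels, siSbp2l is the lowest Day3 group for Mbp, Cnp and Mag, and siPdgfra stands near the controls for Mbp only.

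Mbp, the compaction protein, lies on chromosome 18 (plus strand), with 8 transcripts counted together as 6718 bases of exon. Its level was 6.13 and 5.09 FPKM at Day0. At Day3 it was 1188 and 710.0 FPKM in non-treated, 799 and 792 in mock, 994 and 981 in NC siRNA #1, and 434 and 436 in NC siRNA #2. Both NC siRNA #2 libraries lay below the other 6 control libraries. The level was 179 and 202 FPKM in siSbp2l, below all 8 control libraries, and 777 and 749.7 FPKM in siPdgfra, within the range of the controls. Among all genes, Mbp went from rank 8050 and 8383 by FPKM at Day0 to ranks 14 to 29 in non-treated, mock and NC siRNA #1, 54 and 58 in NC siRNA #2, 234 and 286 in siSbp2l, and 23 and 29 in siPdgfra.

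From Day0 to non-treated Day3 Mbp rose by 7.12 on the log2 scale (SE 0.19, limma adjusted p = 1.91e-10), a ratio of mean FPKM of 169, and in siSbp2l it rose by 4.86, a ratio of 34.0. Against the mean of the controls, Mbp fell by 1.97 in siSbp2l (SE 0.15, CI -2.31 to -1.62, limma adjusted p = 5.11e-06). Set against each control in turn, Mbp fell by 2.26 (non-treated), 2.06 (mock), 2.37 (NC siRNA #1) and 1.19 (NC siRNA #2), all called. In siPdgfra the difference of Mbp from the mean of the controls was 0.03 (SE 0.15, CI -0.31 to 0.37, limma adjusted p = 0.887). No difference was detected, and changes of a size within that interval remain possible. Without NC siRNA #2 in the mean the difference of Mbp was -0.23, and the sign also turned with other scalings, at -0.049 and -0.068. Against NC siRNA #2 alone Mbp was higher in siPdgfra by 0.81, short of 2-fold (limma adjusted p = 0.00699). Mbp was lower in siSbp2l than in siPdgfra by 1.997 on the log2 scale (CI -2.43 to -1.56, limma adjusted p = 2.13e-05), called.

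Among the controls, Mbp in NC siRNA #2 fell by 1.08 against non-treated (limma adjusted p = 0.00381) and by 1.18 against NC siRNA #1 (limma adjusted p = 0.00185), and differed by -0.87 from mock. The first of these rested on 1 library, since without non-treated replicate 1 the difference of Mbp was -0.71 and no longer called. It was also not called when only these 2 groups were fitted (limma adjusted p = 0.144). The groups in falling order of mean Mbp level were NC siRNA #1, non-treated, mock, siPdgfra, NC siRNA #2, siSbp2l and Day0. Neighbours among the first 4 differed by 0.06 to 0.21 with limma adjusted p of 0.571 to 0.828.

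Cnp, the enzyme of the cytoplasmic channels, was already present at Day0 at 219 and 197 FPKM, rank 249 and 295 among all genes. At Day3 its level was 1777 and 1273 FPKM in non-treated, 1630.1 and 1633 in mock, 1808 and 1895 in NC siRNA #1, and 1339 and 1339.65 in NC siRNA #2. The level was 850.3 and 917 FPKM in siSbp2l and 1108 and 1015 FPKM in siPdgfra. All KD libraries lay below all 8 control libraries, and both siSbp2l libraries lay below both siPdgfra libraries.

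Cnp rose from Day0 to non-treated Day3 by 2.85 on the log2 scale (SE 0.14, limma adjusted p = 1.56e-08), a ratio of mean FPKM of 7.34. In siSbp2l it stood under the controls' mean by 0.83 (SE 0.12, CI -1.09 to -0.57, limma adjusted p = 0.000267), which is short of 2-fold and not called. Cnp differed by -0.77 from non-treated, by -0.88 from mock, by -1.07 from NC siRNA #1 (called) and by -0.60 from NC siRNA #2. Without non-treated replicate 2 the difference from non-treated was -1.01 and called. In siPdgfra Cnp stood under the same mean by 0.57 (SE 0.12, CI -0.83 to -0.30, limma adjusted p = 0.00264), with single differences of -0.34 (NC siRNA #2) to -0.80 (NC siRNA #1), none called. The difference of Cnp between siSbp2l and siPdgfra was -0.26 (CI -0.60 to 0.07, limma adjusted p = 0.167). No pair of controls was called, and the largest difference was -0.47 between NC siRNA #2 and NC siRNA #1 (limma adjusted p = 0.0529). The order of mean Cnp levels was NC siRNA #1, mock, non-treated, NC siRNA #2, siPdgfra, siSbp2l and Day0, in which no neighbouring pair of Day3 groups passed an adjusted p of 0.05.

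Mag, the periaxonal adhesion protein, had the lowest start of the 4, at 0.586 and 0.513 FPKM at Day0, which is about 44.995 and 28.0 fragments and well over a floor of 3 fragments. At Day3 the level was 528 and 294 FPKM in non-treated, 419 and 415 in mock, 415 and 446 in NC siRNA #1, and 135 and 137 in NC siRNA #2. The level in the NC siRNA #2 libraries was again below that in the other 6 controls. It was 51.0 and 60.4 FPKM in siSbp2l and 59.6 and 59.2 FPKM in siPdgfra, so the KD libraries overlapped each other and lay below every control library. Mag ranked 48th to 114th among all genes in non-treated, mock and NC siRNA #1, 430th and 441st in NC siRNA #2, and 1269th to 1588th in the KD libraries.

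The rise of Mag from Day0 to non-treated Day3 was 7.99 on the log2(FPKM + 1) scale (SE 0.20, limma adjusted p = 1.55e-10), which understates the ratio of mean FPKM of 748 because the start is below 1 FPKM. The same ratio was 248 in NC siRNA #2, 101 in siSbp2l and 108 in siPdgfra, so the transcript still rose in both KDs. Against the mean of the controls, Mag fell by 2.48 in siSbp2l (SE 0.17, CI -2.86 to -2.09, limma adjusted p = 2.25e-06) and by 2.38 in siPdgfra (SE 0.17, CI -2.762 to -1.998, limma adjusted p = 2.97e-06). In siSbp2l Mag fell by 2.81 from the level of non-treated, by 2.89 from mock, by 2.93 from NC siRNA #1 and by 1.28 from NC siRNA #2. In siPdgfra Mag fell by 2.71, 2.79, 2.84 and 1.18 from the same controls, and all 8 differences were called. The difference of Mag between siSbp2l and siPdgfra was -0.10 (CI -0.58 to 0.39, limma adjusted p = 0.735).

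Mag in NC siRNA #2 fell by 1.53 against non-treated (limma adjusted p = 0.0011), by 1.61 against mock (limma adjusted p = 0.00108) and by 1.65 against NC siRNA #1 (limma adjusted p = 0.00045). The first was not called when only the 2 groups were fitted (limma adjusted p = 0.0889). The order of mean Mag levels was NC siRNA #1, mock, non-treated, NC siRNA #2, siPdgfra, siSbp2l and Day0. Neighbours among the first 3, and siPdgfra against siSbp2l, differed by at most 0.10 and overlapped.

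Cldn11, the tight junction claudin, was the highest of the 4 at Day0, at 371 and 334 FPKM. At Day3 its level was 2264 and 2145 FPKM in non-treated, 1914 and 2002 in mock, 1195 and 1316 in NC siRNA #1, and 2113 and 2307 in NC siRNA #2. Here NC siRNA #1 was the low control, where for Mbp and Mag it was NC siRNA #2. The level was 1067 and 1064 FPKM in siSbp2l and 1063 and 956 FPKM in siPdgfra, so all KD libraries lay below all controls, with the gap to NC siRNA #1 the smallest. Cldn11 ranked 4th to 8th among all genes in the control libraries and 13th to 18th in the KD libraries.

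Cldn11 rose from Day0 to non-treated Day3 by 2.64 on the log2 scale (SE 0.11, limma adjusted p = 2.89e-09), a ratio of mean FPKM of 6.25. In siSbp2l it stood under the controls' mean by 0.80 (SE 0.09, CI -1.003 to -0.602, limma adjusted p = 4.83e-05), not called. It fell by 1.05 against non-treated and by 1.05 against NC siRNA #2, and its difference was -0.88 from mock and -0.24 from NC siRNA #1 (CI -0.49 to 0.02, limma adjusted p = 0.114). The call of Cldn11 against NC siRNA #2 was lost without NC siRNA #2 replicate 2, at -0.99. In siPdgfra Cldn11 stood under the same mean by 0.88 (SE 0.09, CI -1.08 to -0.68, limma adjusted p = 2.45e-05), not called, and fell by 1.13 against non-treated and by 1.13 against NC siRNA #2. Its difference was -0.96 from mock, or -1.03 and called without siPdgfra replicate 1, and -0.32 from NC siRNA #1. Without NC siRNA #1 in the mean, the siPdgfra difference of Cldn11 was -1.07 and called.

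The difference of Cldn11 between siSbp2l and siPdgfra was 0.08 (CI -0.17 to 0.33, limma adjusted p = 0.585). Among the controls, Cldn11 in NC siRNA #1 was lower by 0.81 than non-treated (limma adjusted p = 0.000621) and by 0.64 than mock (limma adjusted p = 0.00304), and NC siRNA #2 was higher than NC siRNA #1 by 0.82 (limma adjusted p = 0.00063), all short of 2-fold. The order of mean Cldn11 levels was NC siRNA #2, non-treated, mock, NC siRNA #1, siSbp2l, siPdgfra and Day0, and its only neighbours at Day3 with an adjusted p under 0.05 were mock and NC siRNA #1.

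**Figure D2:**
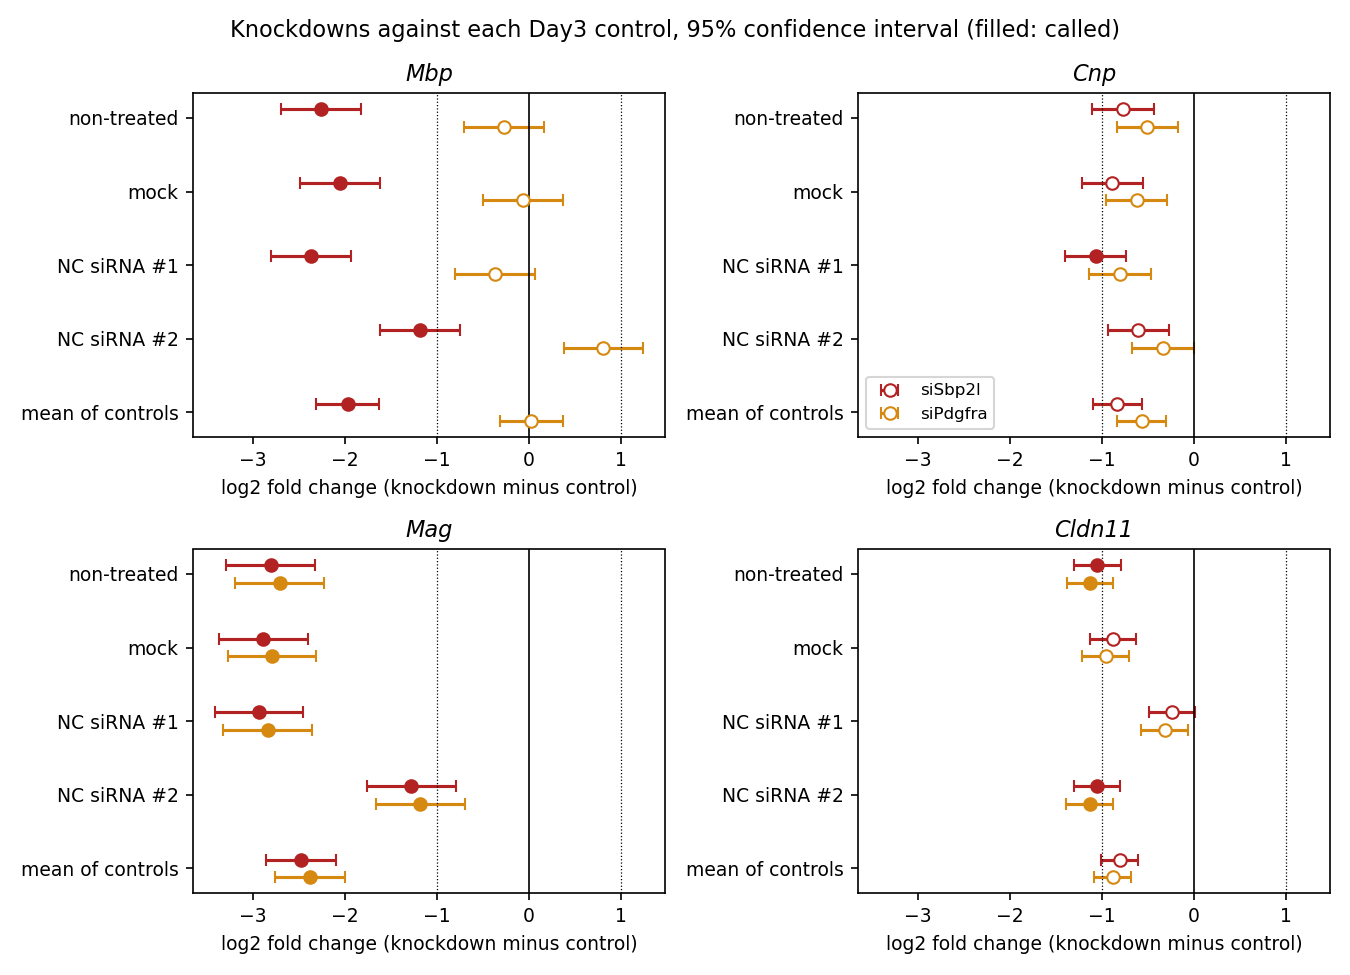
Difference on the log2(FPKM + 1) scale of siSbp2l and siPdgfra from each Day3 control and from their mean, with the 95% confidence interval of limma, for each of the 4 genes. Filled points are called, dotted lines mark a 2-fold difference, and Mbp is the gene in which the KDs part, at -1.97 for siSbp2l and 0.03 for siPdgfra.

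Since the non-treated replicates stood apart, the mean of the controls was also taken without that group. In siSbp2l the difference was then -1.87 for Mbp, -0.85 for Cnp, -2.37 for Mag and -0.72 for Cldn11, and in siPdgfra it was 0.13 for Mbp, -0.59 for Cnp, -2.27 for Mag and -0.80 for Cldn11. None of these 8 moved across the threshold.

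The median of all 11650 genes differed by 0.15 between siSbp2l and the mean of the controls and by 0.09 between siPdgfra and that mean. Scaling by median ratio or upper quartile removes such a shift. It moved Cnp in siSbp2l against mock to -1.05 and -1.02 and Cldn11 to -1.04 and -1.01, past the 2-fold threshold, and Cldn11 in siPdgfra against mock to -1.03 and -1.06.

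The 4 mRNAs kept different proportions in different groups, which is given as a description with no test. Relative to Cnp, Mbp stood at 0.026 and 0.028 at Day0, at 0.485 to 0.668 in non-treated, mock and NC siRNA #1, at 0.324 and 0.325 in NC siRNA #2, at 0.211 and 0.221 in siSbp2l, and at 0.702 and 0.738 in siPdgfra. The siPdgfra libraries had the highest share of Mbp to Cnp of all 14. Mag relative to Cnp was 0.0027 and 0.0026 at Day0, 0.230 to 0.297 in those 3 controls, 0.101 and 0.103 in NC siRNA #2, 0.060 and 0.066 in siSbp2l, and 0.054 and 0.058 in siPdgfra. The siSbp2l and siPdgfra cells thus had similar low proportions of Mag, while the ratio of Mbp to Mag was 3.35 and 3.52 in siSbp2l and 12.7 and 13.0 in siPdgfra, against 1.91 to 3.22 in the controls. Cldn11 exceeded Cnp in 10 of 14 libraries, and the 4 in which Cnp exceeded Cldn11 were those of NC siRNA #1 (0.661 and 0.695) and siPdgfra (0.942 and 0.959). By FPKM, Mbp was the third and Mag the fourth in level in every library. Estimated fragments, which are not divided by exon length, gave another order in mock replicate 1. There Mbp had 111547, Cnp 90774.5 and Cldn11 74487.9.

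**Figure D3:**
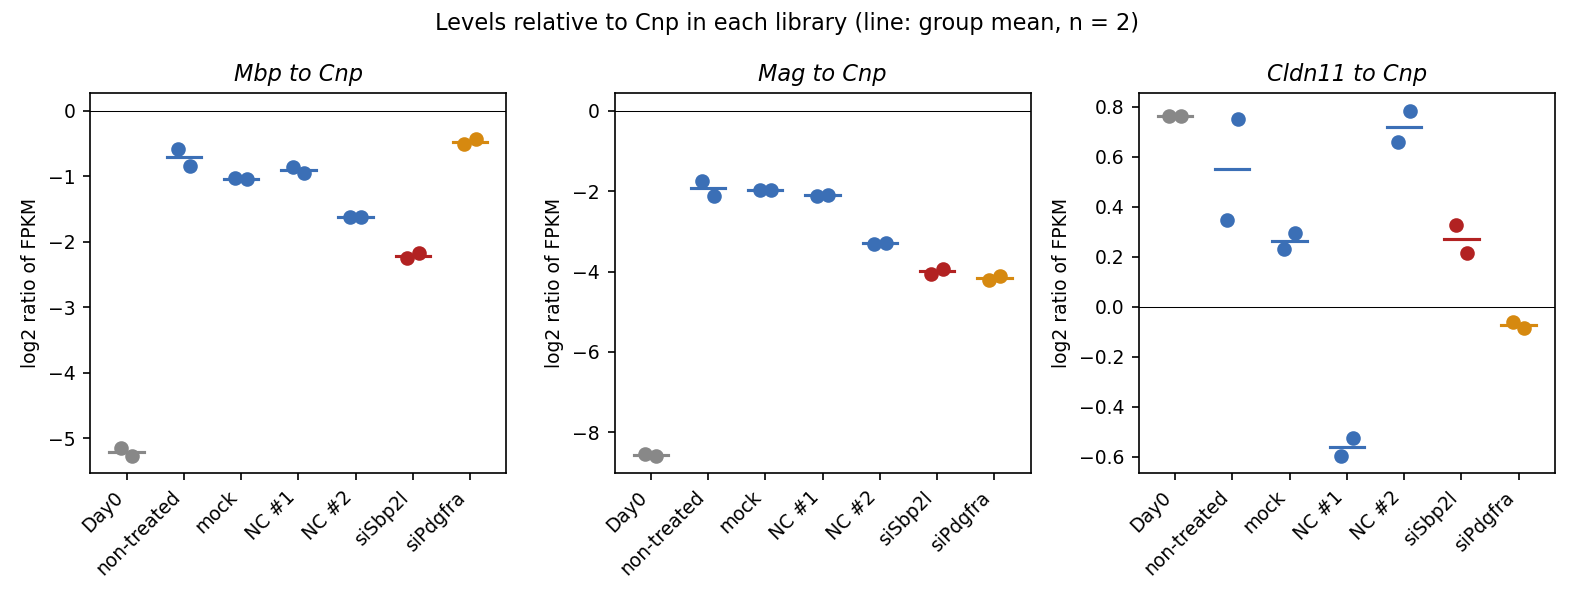
Log2 ratio of the FPKM of Mbp, Mag and Cldn11 to that of Cnp in each library, with points for libraries and a line for the group mean (n = 2). The mean log2 ratio of Mbp to Cnp is -2.21 in siSbp2l and -0.47 in siPdgfra, and that of Mag to Cnp is -3.99 and -4.16.

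Across the 12 Day3 libraries the correlation of log2 levels (Pearson's r) was 0.94 for Cnp and Mag, 0.79 for Mbp and Cnp, 0.71 for Mbp and Mag, 0.61 for Mag and Cldn11, 0.53 for Cnp and Cldn11 and 0.28 for Mbp and Cldn11. These points come in 6 groups of 2 libraries and share the library's depth and base composition, so r describes these libraries only. Together the 4 genes held 0.134% and 0.148% of the summed FPKM at Day0, 1.10% to 1.48% in the controls, 0.582% and 0.617% in siSbp2l, and 0.726% and 0.803% in siPdgfra.

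The genes whose log2 level over all 14 libraries was most like that of a member were taken from 6675 genes with a mean of at least 10 FPKM, and the likeness is mostly set by the step from Day0 to Day3. For Mbp they were Bfsp2 (r = 0.996), Gm98 (0.989) and Ttc39c (0.988), with r of 0.971, 0.893 and 0.932 over the Day3 libraries alone. Gm98 is the older symbol of Myrf by RefSeq. No Mbp window was searched for the MYRF letters, and a link of Myrf to any member was not tested. For Cnp they were Arhgap23 (0.998), the tubulin gene Tubb4a (0.997) and Pacs2 (0.994), for Mag they were Kndc1 (0.996), Snx32 (0.992) and Parm1 (0.991), and for Cldn11 they were Tm7sf3 (0.992), 4732418C07Rik (0.981) and Chn2 (0.980).

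**Figure D4:**
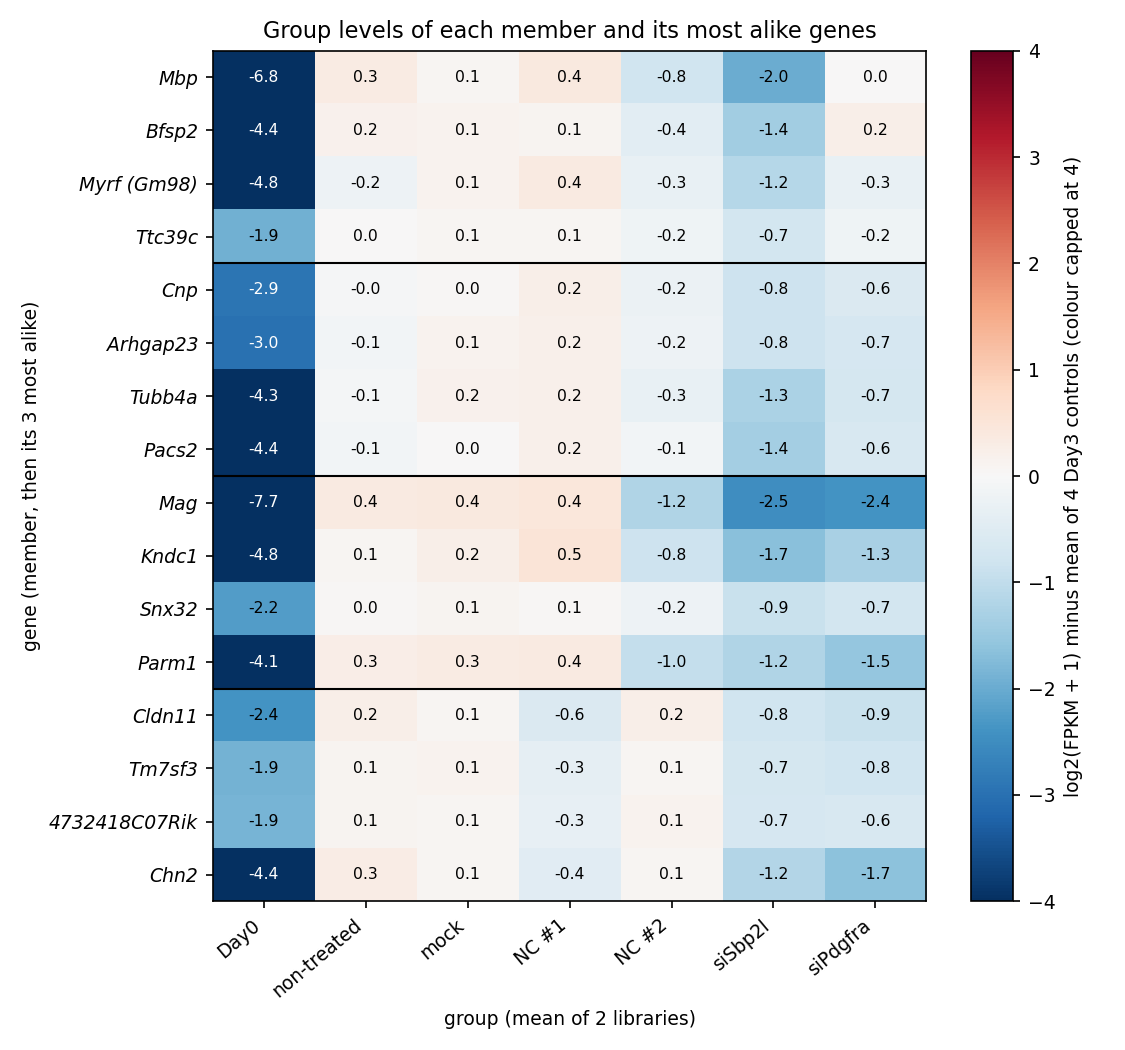
Group means on the log2(FPKM + 1) scale minus the mean of the 4 Day3 controls, for each of the 4 genes and the 3 genes most like it over 14 libraries. In siSbp2l all 16 genes lie below that mean, while in siPdgfra Mbp and Bfsp2 stand at or above it. Mbp in siPdgfra (mean 763 FPKM) is below non-treated (949), mock (795) and NC siRNA #1 (988) and above NC siRNA #2 (435). The alike genes were chosen over these same libraries, both KDs included, so their resemblance to the members there follows from that choice.

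Myrf (Gm98 in the table) was at 6.49 and 5.53 FPKM at Day0. At Day3 it was at 199 and 140.0 FPKM in non-treated, 209 and 219 in mock, 244 and 256 in NC siRNA #1, 165 and 155 in NC siRNA #2, 80.8 and 93.9 in siSbp2l, and 171 and 146 in siPdgfra. The siSbp2l libraries lay below all other Day3 libraries. Myrf fell by 1.15 in siSbp2l against the mean of the controls (SE 0.13, limma adjusted p = 4.85e-05), while the difference in siPdgfra was -0.30 (limma adjusted p = 0.0696). Against single controls the difference in siSbp2l was -0.93 from non-treated, -1.29 from mock (called), -1.51 from NC siRNA #1 (called) and -0.87 from NC siRNA #2.

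Of 15 transcription factors of the lineage 14 were tested. Of these, Myrf was called lower and Chd7, a chromatin remodeler, was called higher (by 1.08, limma adjusted p = 2.86e-06) in siSbp2l against the mean of the controls, and the median difference was -0.12 beside 0.15 over all genes. In that comparison 475 of all 11650 genes were called lower and 363 higher. The difference of Chd7 was smallest against NC siRNA #2, at 0.69 and not called. Sox10, a factor of the whole OL lineage, differed by -0.15 (limma adjusted p = 0.528), Olig2 by -0.12 (limma adjusted p = 0.296) and Tcf7l2 by -0.21 (limma adjusted p = 0.0269), none called. In siPdgfra, 469 of all 11650 genes were called lower and 462 higher than the mean of the controls. Among the 14 factors, Smarca4 was called higher there. Tcf7l2 (fell by 1.04, limma adjusted p = 1.64e-06) and the thyroid hormone receptor gene Thra (fell by 1.05, limma adjusted p = 7.32e-05) were called lower. These calls sit near the threshold and not every control gave them: Tcf7l2 differed by -0.87 from NC siRNA #1 and by -0.93 from NC siRNA #2, Thra by -0.93 from NC siRNA #1, and Smarca4 by 0.72 from mock, none called.

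The other myelin and OL proteins give the surroundings of the 4 genes. In siSbp2l against the mean of the controls, 12 of 26 tested (27 listed) were called lower and 1 higher, with a median difference of -0.96, where 475 of all 11650 genes were called lower and 363 higher (616 and 214 with median-ratio scaling, 585 and 240 with upper-quartile scaling). Against the single controls the count called lower was 11 (non-treated), 12 (mock), 17 (NC siRNA #1) and 8 (NC siRNA #2). Mog, a glycoprotein of the outer myelin surface, fell by 2.55, and Mobp, a protein of compact myelin, by 2.26 against that mean, but the controls themselves lay far apart. Mog was at 5.23 and 5.45 FPKM in NC siRNA #2, at 35.0 to 67.2 in the other controls and at 3.73 and 3.94 in siSbp2l. Mobp was at 5.05 and 5.93 FPKM in NC siRNA #2, at 15.9 to 103 in the other controls and at 3.83 and 3.52 in siSbp2l. Against NC siRNA #2 alone the difference was -0.39 for Mog and -0.47 for Mobp, not called, where against each of the other 3 controls both were called lower. The largest fall was that of the tetraspanin gene Tspan2 (3.93), and the gene called higher was Mal, a raft protein at a low level (0.72 to 1.57 FPKM as means of the control groups and 4.30 in siSbp2l). In siPdgfra 2 of 26 were called lower and 3 higher than the mean of the controls, led by the gap junction gene Gjb1 (1.87), with a median of -0.04, where 469 of all 11650 genes were called lower and 462 higher. The balance turned with the control, at 8 lower and 2 higher against NC siRNA #1 and 1 lower and 6 higher against NC siRNA #2. In siPdgfra Mog differed by 0.40 and Mobp by -0.98 from the mean, and Mog by 2.56 (called) from NC siRNA #2 and Mobp by -3.18 (called) from NC siRNA #1. In NC siRNA #2 against NC siRNA #1, 10 of the 26 were called lower and 1 higher, where 2.36% of all genes were called lower. From Day0 to non-treated Day3, 21 were called higher and 0 lower by limma, where 1355 of all 11874 genes were called higher and 1802 lower.

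Of 8 genes for the transport and translation of Mbp mRNA, 1 was called lower and 0 higher in siSbp2l, with a median of 0.15 (-0.12 in siPdgfra, where again 1 was called lower), where 4.08% of all genes were called lower in siSbp2l and 4.03% in siPdgfra. It was Tppp, a tubulin-binding protein of the OL processes, which fell by 2.58 in siSbp2l and by 2.15 in siPdgfra. Hnrnpa2b1, which binds the transport signal of Mbp mRNA, differed by 0.10 (limma adjusted p = 0.425) and Qk, an RNA-binding protein that stabilises Mbp mRNA, by -0.29 (limma adjusted p = 0.218). Fyn, the kinase that relieves the repression of Mbp translation, was lower by 0.59 in siSbp2l and by 0.95 in siPdgfra, short of 2-fold. The control means of Fyn lay apart, from 236 to 476 FPKM, and siSbp2l stood at 63.9% of their mean of 371 FPKM. Hnrnpf had the largest positive difference (0.36 and 0.52). Of the 8 genes, 2 were called lower than non-treated in siSbp2l (background 4.95%). In siPdgfra 2 were called lower than non-treated (4.82%) and 2 than mock (4.69%). The level of mRNA is all that was measured here, so the translation of Mbp was not tested.

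Of 10 partners of claudin-11 and of tight junctions, 5 passed the filter. In siSbp2l 1 of the 5 was called higher than the mean of the controls, where 363 of all 11650 genes were. Tjp1, the scaffold ZO-1, was called higher in siSbp2l than the mean of the controls (by 1.001 on the log2 scale, limma adjusted p = 2.29e-05), at 86.7 FPKM on average against 41.1 to 43.7 as means of the control groups. That call sits at the threshold: Tjp1 rose by 1.07 against non-treated and differed by 0.97 from mock, 0.97 from NC siRNA #1 and 0.99 from NC siRNA #2, short of 2-fold, and the median of all genes was shifted the same way by 0.15. Tspan3, which binds claudin-11, differed by 0.05, and the median of the 5 was 0.28. In siPdgfra 0 of the 5 were called by limma, and Tjp1 differed by -0.01. Of 9 receptors of Mag and enzymes of its ganglioside ligands, 5 passed the filter, and 0 were called by limma in siSbp2l, where St3gal2 differed by 0.76 and St3gal3 by -0.66, both with adjusted p under 0.05. In siPdgfra the ganglioside synthase gene St8sia1 was called higher than the mean of the controls (by 1.36), where 462 of all 11650 genes were.

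Markers of other cells were summed over their lists as FPKM. For the calls below, 363 of all 11650 genes were called higher and 475 lower than the mean of the controls in siSbp2l. In siPdgfra 462 were called higher and 469 lower. In siSbp2l 4.95%, 4.76%, 5.28% and 4.30% of genes were called lower than non-treated, mock, NC siRNA #1 and NC siRNA #2. The 7 precursor markers lay at 911 to 952 at Day0, 271 to 550.4 in the controls, 549 to 568 in siSbp2l and 164 to 177 in siPdgfra. Of 6 tested, 1 (Pdgfra) was called higher than the mean of the controls in siSbp2l (149.9 and 144 FPKM), and 2 were called lower in siPdgfra. Pdgfra, the siRNA target, is 1 of those 2 and is in the siPdgfra sum, so its fall was set by the KD. Lhfpl3 ran against the list, with a mean of 190 FPKM in the controls and a Day0 level at 38.1% of that. It was the 1 precursor marker called higher than Day0 in non-treated, mock and NC siRNA #2. The 7 OL markers lay at 3219 to 5953 in the controls, 780.4 to 901 in siSbp2l and 2680 to 3269 in siPdgfra, and in siSbp2l 4 were called lower and 1, Mal, higher than the mean of the controls, with 4, 5, 4 and 1 called lower against non-treated, mock, NC siRNA #1 and NC siRNA #2, though Mog, Mobp and Mal stand in the list of myelin proteins too. The 5 astrocyte markers lay at 54.5 to 103 in the controls, 65.3 to 65.4 in siSbp2l and 27.5 in siPdgfra, with Aqp4 and Gja1 under 1 FPKM in every library, and Gfap and Slc1a2 were called lower in siPdgfra than the mean of the controls (Slc1a2 not against NC siRNA #1, at -0.85). The 5 neuron markers lay at 1.48 to 3.05 in the controls, 7.35 in siSbp2l and 5.61 to 5.99 in siPdgfra, with Snap25, Slc17a7 and Gad1 under 1 FPKM at Day3 and Syt1 called higher in both KDs. The 4 markers of Schwann cells, which make peripheral myelin, lay at 23.3 to 26.2 at Day0, 8.003 to 15.9 in the controls, 27.3 to 28.8 in siSbp2l and 5.75 to 7.03 in siPdgfra, with Pmp22 called higher in siSbp2l than the mean of the controls (not against mock, at 0.83). All 6 markers of microglia, 4 of endothelium and 3 of mural cells were under 1 FPKM in every library. The part of these markers in the differences of Mbp, Cnp, Mag and Cldn11 was not tested.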

How the data were processed

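Poly(A) RNA from 14 libraries (TruSeq Stranded mRNA, per the labels) was processed by the authors with OmicSoft ArrayStudio on mm10 refGene models, with aligner and counting settings not given in the sources used here, and deposited as FPKM values. Although titled as count data, that table holds values with decimals. A second deposited table holds the authors' DESeq2 comparisons (fold changes, p-values), which were not used, and the gene positions. The columns of the non-treated group are named by day alone and were matched by elimination. The 4 genes, the gene lists and the tests were chosen with earlier results of these data known.

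FPKM values were taken as log2(FPKM + 1), for genes of at least 1 FPKM in 2 libraries (11650 genes in the 12 Day3 libraries, 11874 in all 14), and fitted with limma 3.58.1 in R 4.3.3 with trend and robust variance, all groups sharing 1 spread. Day0 comparisons used the fit of 14 libraries. p-values were adjusted by Benjamini-Hochberg per comparison over all genes. Depth was estimated from the steps of low FPKM values (88.7% to 92.7% whole within 0.1 in genes of 1 transcript); it and the floor of 3 fragments cover counting error only. Named genes were the 4, the 3 most like each, a set of lineage, transport and junction genes, and the largest rise and fall of each list in siSbp2l against the controls, with St8sia1, Gjb1, Smarca4, Thra and the markers named after their values were seen. Some genes of these lists are not reported here. Myrf, Zfp24 and Pirb were matched through RefSeq synonyms. Alternatives were pseudocount, filter, scaling, moderation, the replicate block, the libraries fitted, each library left out, each control left out of the mean, and no fold threshold. Tables and figures used Python 3.11.15 and matplotlib 3.10.9. Unused columns of single samples numbered 0.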

Additional observations from a re-analysis of the deposited data

Results flagged for a closer look

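The step from Day0 to Day3 differed between control groups for Mbp and Mag when the groups were tested against each other with limma, which share the Day0 libraries. For Mbp it was smaller in NC siRNA #2 by 1.08 on the log2 scale than in non-treated cells (-1.08) and than in NC siRNA #1 by 1.18 (-1.18). For Mag it was smaller in NC siRNA #2 than in non-treated (-1.53), mock (-1.61) and NC siRNA #1 (-1.65). Both NC siRNA #2 libraries lay below the other 6 control libraries in each case.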

How the results depend on the processing

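Of the differences of Mbp, Cnp, Mag and Cldn11 recomputed under the alternatives, 1387 kept direction and call, 27 became called, 4 lost a call and 18 changed sign, and no called difference changed sign. The cause of these changes was not tested, except that dropping the fold threshold calls smaller differences by construction. With no fold threshold, Cnp (-0.83) and Cldn11 (-0.80) in siSbp2l and Cnp (-0.57) and Cldn11 (-0.88) in siPdgfra were called against the mean of the controls, and so was Cldn11 in siPdgfra without NC siRNA #1 in that mean (-1.07). Mbp in siPdgfra against the mean was -0.049 with median-ratio and -0.068 with upper-quartile scaling, -0.23 without NC siRNA #2, and -0.064 to 0.12 when 1 library was left out. With 1 library left out, the difference from non-treated ranged for Mbp from -0.64 to 0.10 in siPdgfra, -0.58 to 0.16 in mock and -0.27 to 0.48 in NC siRNA #1, for Mag from -0.34 to 0.50 in mock and -0.29 to 0.55 in NC siRNA #1, for Cnp from -0.12 to 0.36 in mock and -0.41 to 0.074 in NC siRNA #2, and for Cldn11 from -0.060 to 0.066 in NC siRNA #2, which was -0.093 with median-ratio and -0.10 with upper-quartile scaling. It ranged for Mag from -0.22 to 0.023 between the KDs and from -0.0059 to 0.10 between NC siRNA #1 and mock, and Cldn11 between the KDs was -0.011 with median-ratio scaling. A lone library in a group is assumed to vary like the other groups.

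The labels do not say whether equal replicate numbers pair the libraries. The replicate differences of 2 groups correlated at -0.38 to 0.47, and 4 of 21 pairs exceeded 0.1. With 1 replicate difference per group, these correlations cannot decide it. With a replicate block, all 92 differences kept their call, for example Mbp in siSbp2l at -1.97 (limma adjusted p = 1.36e-05). Counts of called genes moved over 1.5 times mainly with a pseudocount of 5, to 392 from 838 in siSbp2l and to 382 from 931 in siPdgfra against the mean of the controls, and to 694 from 1592 between the KDs. Against non-treated, mock, NC siRNA #1 and NC siRNA #2 it left 528 of 1234, 456 of 933, 511 of 1149 and 433 of 893 calls in siSbp2l and 538 of 1277, 438 of 1099, 457 of 1135 and 493 of 1193 in siPdgfra. Against Day0 it left 1915 of 3157, 1904 of 3109, 2179 of 3478 and 2043 of 3351 calls in the controls (same order), 1527 of 2708 in siSbp2l and 1961 of 3292 in siPdgfra. It left 143 of 450 for NC siRNA #1 against non-treated, 113 of 372 against mock, and 196 of 465 for NC siRNA #2 against NC siRNA #1. NC siRNA #2 against non-treated moved from 304 to 461 with a pseudocount of 0.5, to 100 with one of 5, to 114 with only these groups and to 554 without non-treated replicate 1, against mock from 235 to 353 and 71 with those pseudocounts, and mock against non-treated from 1 to 4 and 0 with them, to 113 without non-treated replicate 1 and to 5 without replicate 2. With 2 libraries a group, a difference whose interval holds 0 could not be told from none, which does not show that there is none.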
